A study of Mus musculus with 75 samples.

Results

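The regions described here had no called peak of open chromatin at passage 1 (P1) of cultured mouse skin fibroblasts. They had a peak by passage 3 (P3) and kept it at passages 5 and 7 (P5 and P7). Below, open means that a peak was called, and a region without a peak may have been under the limit of detection. Open chromatin had been measured by ATAC-seq, in which a transposase cuts accessible DNA, in 13 samples, 4 at P1 and 3 at each later passage. The peaks of all 13 samples on chromosomes 1 to 19 and X were merged where they overlapped, which gave 306843 regions. A region was kept if it overlapped a peak in 0 of 4 P1 samples and in 2 or more of the 3 samples at each of P3, P5 and P7. This rule was met by 3652 regions. The passaged cells were untreated skin fibroblasts of 2-month-old female C57BL/6 mice, which were cultured until they stopped dividing (replicative senescence). Their messenger RNA was sequenced in 4 libraries at each of P1, P3, P5 and P7. Fibroblasts with a lentiviral short hairpin RNA against Tead1 (hairpins sh3 and sh4) or Atf3 (sh5 and sh6) were compared with fibroblasts that carried a non-targeting hairpin (nt), with 3 libraries for each hairpin and a set of nt libraries of its own for each target. The methods name fibroblasts of newborn and of 2-month-old mice for these knockdowns, and the labels do not say which were used in a given library. The labels also give no passage for these libraries. The paper describes the cells of the Atf3 knockdown as pre-senescent, and its knockdown cells were selected with puromycin.

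ATAC-seq peaks away from gene starts are often enhancers, which are held open by the proteins bound to them. TEAD factors bind DNA with the coactivators YAP and TAZ, which are restrained by the Hippo pathway, and they switch on genes of growth, adhesion and the cytoskeleton in spread cells. AP-1 is a dimer of FOS, JUN and ATF family proteins that opens enhancers in most cultured cells. Both families often act at the same enhancers of fibroblasts.

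The DNA under the summits gives the first view of these regions. The summit of the strongest peak of a region was taken with 100 bases on each side, a window of 201 bases of the mm10 genome (RefSeq GRCm38), and was searched on both strands for 23 consensus sequences. The windows are printed 5′ to 3′ on the plus strand, with each TEAD core (GGAATG, or CATTCC on the other strand) and each AP-1 consensus (TGACTCA, or TGAGTCA) in capitals. The windows near Gpc6, Epas1 and Chchd3 are among the 10 strongest of the regions outside exons, the windows of Dtnbp1, Magi1, Fhl1 and Pappa are the strongest of those genes, and the windows in Tead1 were chosen after their values were seen because they lie in the gene of a TEAD factor.
near Gpc6 (chr14:116871502-116871702): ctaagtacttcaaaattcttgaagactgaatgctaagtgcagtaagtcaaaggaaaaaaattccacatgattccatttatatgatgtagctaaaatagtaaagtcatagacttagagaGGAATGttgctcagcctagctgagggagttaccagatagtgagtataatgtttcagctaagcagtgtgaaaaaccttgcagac
near Epas1 (chr17:86557748-86557948): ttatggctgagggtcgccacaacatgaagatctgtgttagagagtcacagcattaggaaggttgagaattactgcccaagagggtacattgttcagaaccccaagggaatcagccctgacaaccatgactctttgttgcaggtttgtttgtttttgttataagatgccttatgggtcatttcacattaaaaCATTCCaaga
in Dtnbp1 (chr13:44957129-44957329): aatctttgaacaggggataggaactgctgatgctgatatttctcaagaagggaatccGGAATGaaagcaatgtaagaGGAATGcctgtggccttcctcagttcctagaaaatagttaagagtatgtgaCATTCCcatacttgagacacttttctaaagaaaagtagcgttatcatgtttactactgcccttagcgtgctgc
in Tead1, first region (chr7:112735497-112735697): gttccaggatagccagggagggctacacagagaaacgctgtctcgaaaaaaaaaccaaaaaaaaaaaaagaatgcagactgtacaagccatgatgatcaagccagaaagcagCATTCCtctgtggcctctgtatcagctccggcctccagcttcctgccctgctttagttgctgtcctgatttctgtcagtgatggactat
in Tead1, second region (chr7:112770680-112770880): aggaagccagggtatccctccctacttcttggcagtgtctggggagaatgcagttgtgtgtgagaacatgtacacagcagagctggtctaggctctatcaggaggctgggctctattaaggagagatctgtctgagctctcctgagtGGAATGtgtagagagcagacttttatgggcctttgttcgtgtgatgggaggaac
in Magi1 (chr6:93896772-93896972): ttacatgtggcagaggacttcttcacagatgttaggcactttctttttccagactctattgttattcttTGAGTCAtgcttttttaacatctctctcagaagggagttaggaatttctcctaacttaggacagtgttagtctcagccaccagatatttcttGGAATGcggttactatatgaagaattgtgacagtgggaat
near Chchd3 (chr6:32902641-32902841): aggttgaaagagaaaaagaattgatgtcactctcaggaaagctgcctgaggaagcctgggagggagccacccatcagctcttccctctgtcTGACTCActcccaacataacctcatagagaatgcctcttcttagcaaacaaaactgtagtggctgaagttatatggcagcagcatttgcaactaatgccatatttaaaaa
in Fhl1 (chrX:56765991-56766191): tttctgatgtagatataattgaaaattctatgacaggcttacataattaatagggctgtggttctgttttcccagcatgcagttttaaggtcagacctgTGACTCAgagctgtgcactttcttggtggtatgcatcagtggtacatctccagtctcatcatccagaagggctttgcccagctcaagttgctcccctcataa
near Pappa (chr4:65046134-65046334): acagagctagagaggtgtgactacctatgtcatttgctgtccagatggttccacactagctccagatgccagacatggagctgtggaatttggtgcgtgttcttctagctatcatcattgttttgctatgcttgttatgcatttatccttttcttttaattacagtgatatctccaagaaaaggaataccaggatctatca
The first 5 of these windows hold a TEAD core and no AP-1 consensus, the window in Magi1 holds both, the windows near Chchd3 and in Fhl1 hold AP-1 alone, and the window near Pappa holds neither. The windows of Gpc6 and Pappa are intergenic, at 53.7 and 77.9 kb from the gene's nearest start site, and the others are in introns. A match is a run of letters, and binding at these windows was not measured.

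The deposited lists held 168970 to 186552 peaks per sample at P1, 142372 to 155668 at P3, 182390 to 207956 at P5 and 200363 to 231548 at P7. At P3, 2967, 2682 and 3041 of the 3652 regions had a peak in the 3 samples. The numbers were 3453, 3562 and 2905 at P5 and 3314, 3536 and 3462 at P7. A peak was present in all 9 later samples at 1028 regions (28.1%), in 8 at 1544 (42.3%), in 7 at 838 (22.9%) and in 6 at 242 (6.63%). The regions were chosen by the presence of peaks in these samples, so these counts describe the choice and were not tested. Just inside the rule were 2266 regions with a peak in 2 of 3 samples at P3, and just outside it were 4028 regions that met the rest of the rule with a peak in 1 of 3. At P5 the same margin held 1036 regions inside and 359 outside, and at P7 644 inside and 339 outside. A further 3685 regions met the rule at the later passages but had a peak in 1 P1 sample, and that peak was weak, with a median percentile of 14 among its sample's peaks. Of the 5454 regions with no P1 peak and 2 or more P3 peaks, 67.0% stayed open at P5 and P7 as the rule asks. Without P3 sample 1, 2 or 3, when both remaining P3 samples had to have a peak, the rule was met by 2072, 2378 and 2003 regions.

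Strength was expressed as the percentile of a peak's −log10 p among the peaks of its own sample. This value also depends on the length of the list, since weak peaks at its end raise the percentile of every stronger one, and the P3 lists were the shortest. The regions were weak at P3, with median percentiles of 21.8, 21.9 and 21.6. Their medians were 31.7, 36.0 and 34.3 at P5 and 35.7, 45.6 and 43.5 at P7. The median fold enrichment that MACS2 gave over local background was 3.28, 2.98 and 3.04 at P3, 3.94, 4.03 and 3.75 at P5, and 3.96, 5.02 and 4.81 at P7. Regions open in all 13 samples moved in the same way, with median percentiles of 66.2 to 68.9 at P3 and 75.6 to 78.4 at P7. Regions that opened by P5 and stayed open had medians of 20.1 to 22.8 at P5, close to those of the P3 group at its own first passage. The order of the passages turned with the measure. By the mean percentile, 2390 regions (65.4%) were strongest at P7 and 269 (7.37%) at P3. By the number of stronger peaks in the sample, a rank from the top that was added after seeing the data, 1123 (30.8%) were strongest at P7 and 1948 (53.3%) at P3. The median region had 111186 to 121684 as its rank from the top at P3, 119904 to 135926 at P5 and 125102 to 128890 at P7, against 48065 to 49998 in all later samples for regions open in all 13. By fold enrichment, 2533 (69.4%) were strongest at P7 and 158 (4.33%) at P3. The values are therefore given for each passage as a description, and no gain or loss of strength after P3 is read from them.

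**Figure D1:**
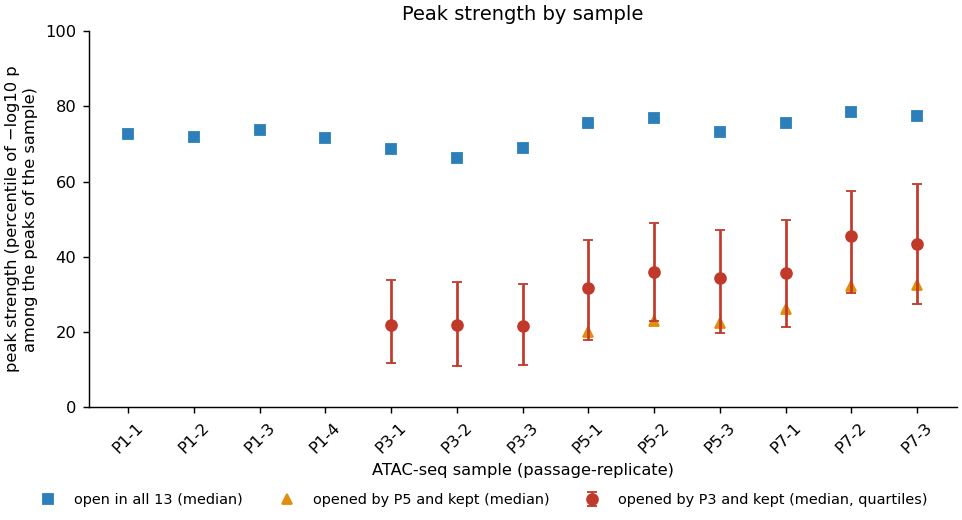
Median peak strength (percentile of −log10 p among the peaks of the sample, y axis) in each ATAC-seq sample (x axis, passage and replicate) for regions opened by P3 and kept (red circles, bars from the lower to the upper quartile of the regions with a peak), opened by P5 and kept (orange triangles) and open in all 13 samples (blue squares). The red medians lie at 21.6 to 21.9 in the P3 samples and at 35.7 to 45.6 in the P7 samples, below the blue medians in each of the 9 samples. The blue medians also lie lowest at P3, where the lists were shortest.

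The strongest of all was an intergenic region 53.7 kb from the start of Gpc6, a glypican of the cell surface. Its fold enrichment was 3.97, 5.36 and 5.73 at P3, 15.2, 18.5 and 13.8 at P5, and 18.8, 23.7 and 19.9 at P7, and its percentile was 30.1, 53 and 54.4 at P3 and 90.6, 94.7 and 90.1 at P7. The regions named here were picked by their median percentile over the samples of P3, P5 and P7. Their values describe that choice, and no rise after P3 is read from them. A region 74.0 kb from the start of Bdnf, a neurotrophin, had a fold enrichment of 7.09, 5.76 and 4.51 at P3, 17.4, 16 and 10.2 at P5, and 15.3, 20.3 and 14.4 at P7. The intronic region of Pde8b, a phosphodiesterase that breaks down cyclic AMP, stood at 5.70, 4.37 and 3.41 at P3 and at 13.5, 14.6 and 16.6 at P7. The percentiles were closer together 196 kb from the start of Epas1, a hypoxia-response factor, at 60.7, 69.0 and 68.8 at P3 and 76.5, 72.2 and 75 at P7. The region in Dtnbp1 with 3 TEAD cores had percentiles of 35.4, 51.1 and 19.8 at P3, 41.2, 54.1 and 49.1 at P5, and 65.4, 66.2 and 74.0 at P7.

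Few of the regions lay close to gene starts. A total of 50 of 3652 (1.37%) were within 1 kb of the start site of a RefSeq transcript, against 6.23% of all 306843 regions and 14.1% of the regions open in all 13 samples. The share was 1.04% for regions opened by P5 and 4.56% for regions open at P1 only. A distance of 1 to 10 kb was found for 762 regions (20.9%), 10 to 100 kb for 2129 (58.3%) and over 100 kb for 711 (19.5%). The shares of all regions at these distances were 17.7%, 53.1% and 23.0%. The median distance was 31.3 kb, close to the 32.6 kb of all regions. It was 42.1 kb for regions opened by P5 and 61.2 kb for those open at P1 only. Introns held 1960 regions (53.7%, against 46.1% of all regions), exons 104 (2.85%) and the space between genes 1588 (43.5%). Another region of the group lay within 10 kb of 226 regions (6.19%) and within 100 kb of 1478 (40.5%). The densest stretches held 5 regions each, around Edn1 on chromosome 13 and around Fhl1 on chromosome X.

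**Figure D2:**
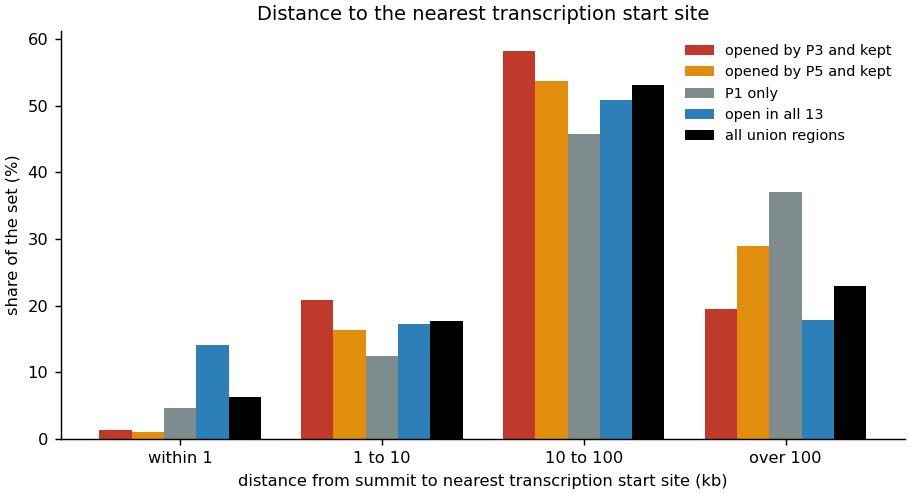
Share of each set of regions (y axis, percent) by the distance from the summit to the nearest transcription start site (x axis, kb). Regions opened by P3 and kept (red) have 1.37% within 1 kb and 58.3% at 10 to 100 kb, against 14.1% and 50.9% of regions open in all 13 samples (blue).

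The TEAD core was the consensus with the largest number of matching windows among the 23 searched. It was present in 1129 windows (30.9%, 95% Wilson interval 29.4 to 32.4, which covers counting error only). The share was 25.7% in regions opened by P5, 23.2% in distal regions open in all 13 samples (over 1 kb from a start site), 12.1% in regions open at P1 only, and 19.6% in all regions. In windows of the same length placed 1000 bases away, 10.7% held it. The longer form GGAATGT was found in 13.4%, against 7.37% of all regions. Neighbouring regions were not independent of each other, and the shares are given side by side without a test. Among all 2080 words of 6 bases, each counted with its reverse complement, GAATGT had the highest ratio of its share in these windows (26.2%) to its share in all windows (16.3%), and GGAATG ranked 4th. Set against distal regions open in all 13 samples instead, GGAATG ranked 66th.

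AP-1 went the other way. Its consensus was in 570 windows (15.6%), against 16.7% of regions opened by P5, 31.1% of distal regions open in all 13 samples, 21.4% of regions open at P1 only and 22.1% of all regions. It was still more frequent than in the windows 1000 bases away, of which 3.57% held it. Both matches were found together in 129 windows (3.53%), TEAD alone in 1000 (27.4%), AP-1 alone in 441 (12.1%) and neither in 2082 (57.0%). When the window was narrowed to 50 bases on each side, 21.4% held a TEAD core (12.5% of all regions) and 11.8% an AP-1 consensus (17.5% of all regions). Around the summit, the share of regions with a TEAD core in a bin of 20 bases reached 5.86%, against 3.68% in distal regions open in all 13 samples in the same bin. AP-1 reached 3.01%, against 7.0%.

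**Figure D3:**
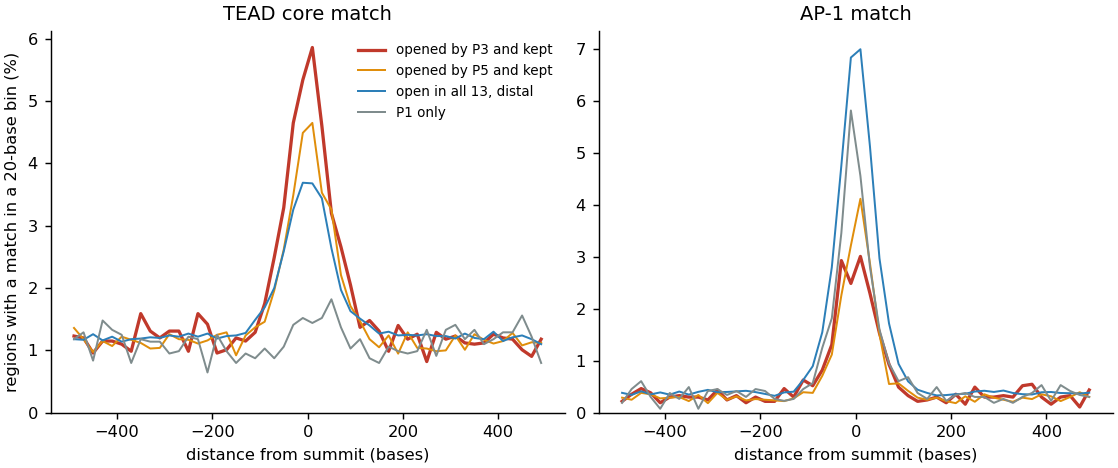
Share of regions with a match in each 20-base bin (y axis, percent) by distance from the summit (x axis, bases) for the TEAD core (left) and AP-1 (right). For TEAD the red line of regions opened by P3 and kept is the highest of the 4 at the centre, at 5.86%, and for AP-1 it is the lowest there, at 3.01%.

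Other consensus sequences had smaller differences in share. TGTGGTT, bound by RUNX factors, was in 11.9% of the windows and in 9.41% of all regions. AACAATG of SOX factors was in 5.70% against 3.98%, and TGTTTAC of FOX factors in 3.89% against 2.91%. The E-boxes CAGCTG (10.9% against 14.8%) and CAGATG (17.3% against 21.7%) and the ETS consensus CCGGAAG (0.438% against 1.55%) were less frequent here than in all regions. The CTCF consensus was in 11 windows (0.301%) against 1.39% of all regions. The windows had a median GC content of 44.3%, against 46.8% in all regions, and its part in the shares of these words was not tested.

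Within the group, TEAD cores were more frequent in stronger regions. From the weakest to the strongest of 4 classes of similar size by median percentile, 25.5%, 30.1%, 32.2% and 35.9% of windows held one, and AP-1 was found in 14.3%, 15.7%, 15.9% and 16.4%. The TEAD share was 27.7% where 6 samples had a peak and 35.4% where all 9 had one. Regions with a TEAD core had a higher median percentile than those without in 8 of 9 samples. The gap was 34.9 against 29.9 in P5 sample 1 but 34.3 against 33.9 in P5 sample 3. P7 sample 3 was the exception with 42.4 against 44.3. Regions with an AP-1 consensus were also higher in some samples, such as 48.5 against 44.7 in P7 sample 2. They were lower in P5 sample 3, with 29.4 against 34.3. By position the TEAD share ran from 26.0% within 1 kb of a start site (50 regions) to 34.9% beyond 100 kb.

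For the RNA, a region was linked to the gene with the nearest start site if this was within 100 kb. This linked 2941 regions to 2521 genes, of which 1749 passed the filter on low counts, out of 13442 tested. The nearest gene need not be the one that a region acts on. A gene was called if the adjusted p of edgeR's quasi-likelihood test was under 0.05 and the change over 2-fold, and the 3 passages were compared with the same 4 P1 libraries. At P3, 74 linked genes (4.23%) were called higher, against 2.40% of all genes tested, and 79 (4.52%) lower, against 6.58%. At P5, 104 (5.95%) were higher against 4.83%, and 145 (8.29%) lower against 10.1%. At P7, 164 (9.38%) were higher against 8.10%, and 200 (11.4%) lower against 13.3%. With at least 10 counts required in every library, the shares called lower were close to those of all genes, at 2.38% against 2.42% at P3, 5.9% against 5.89% at P5 and 9.16% against 9.07% at P7. The labels do not tie the RNA-seq libraries of a passage to separate cultures, so the p-values measure only the spread between these libraries. In RNA from whole cultures, fewer cells of a type cannot be told apart from less RNA per cell.

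Genes with such a region nearby had more open regions of any kind around them, a median of 17 for 1 linked region against 7 for none. Within 4 classes of genes by their number of open regions, the share called higher at P3 was larger for genes with a linked region than without in each class (2.28% against 1.81% for 1 to 10 regions, 3.67% against 2.45% for 11 to 20, 5.80% against 3.56% for 21 to 40, and 5.29% against 2.11% for 41 or more). The share called lower at P3 was smaller in each class, such as 4.48% against 9.56% for 21 to 40 regions. For 1 to 10 regions this order did not hold later. There, the share higher was 4.33% against 4.33% at P5 and 6.83% against 7.80% at P7. The share lower in that class was 9.79% against 9.45% at P5 and 12.1% against 13.1% at P7. In the other classes the order at P5 and P7 was that of P3. By number of linked regions, the share called higher at P3 was 2.12% with 0, 3.87% with 1, 5.48% with 2, 0% of 22 genes with 3, and 36.4% of 11 genes with 4 or more. Those 4 genes with 4 or more regions were Pappa, Fhl1, Pde8b and Lurap1l. The shares were close with and without a TEAD core. Genes with a TEAD core in a linked region were called higher at P3 in 4.11% of 584 cases, against 4.29% of the 1165 other linked genes, and lower in 4.11% against 4.72%.

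**Figure D4:**
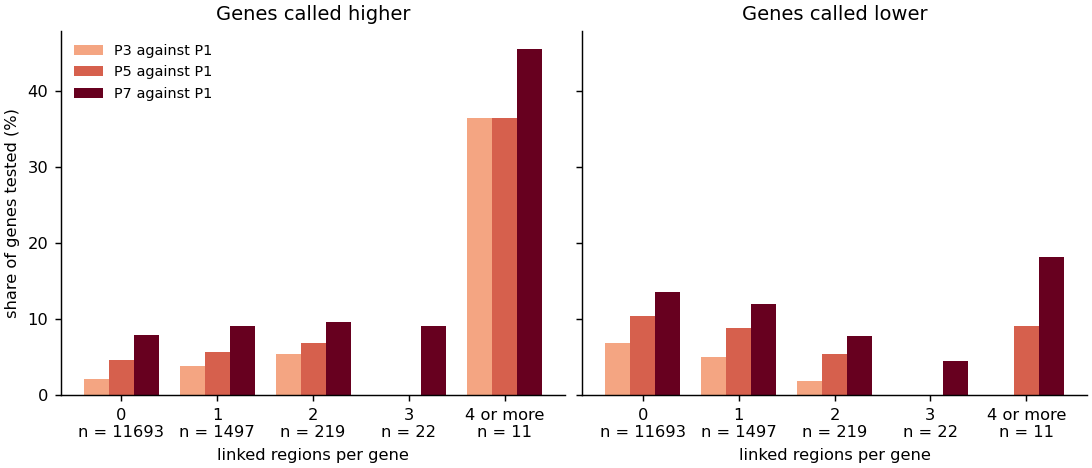
Share of genes called higher (left) and lower (right) against P1 (y axis, percent of the genes tested) by the number of linked regions per gene (x axis, with the number of genes n), at P3, P5 and P7 (light to dark). Of the genes with 4 or more regions 36.4% were called higher at P3, against 2.12% of those with 0.

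P1 libraries also held RNA of other cells. The summed level of 16 macrophage markers was 405 to 613 CPM (counts scaled to the library's total) at P1 and 59.2 to 79.7 at P3, that of 13 keratinocyte markers 97.4 to 571 and then 5.21 to 7.31, and that of 13 skeletal muscle markers 229 to 357 and then 62.9 to 71.6. All 16 macrophage, all 13 keratinocyte and 12 of 13 muscle markers were called lower at P3. The sum of 12 endothelial markers was 285 to 336 at P1 and 220 to 259 at P3, and 10 of the 12 were called lower. For 4 adipocyte markers, the sum was 431 to 587 at P1, 230 to 413 at P3 and 128 to 309 at P7, and 2 were called lower at P3 and all 4 at P7. Linked regions were found for 2 of the macrophage markers (Csf1r and Itgam), 2 of the keratinocyte markers, 0 of the muscle markers, 4 of the endothelial markers and all 4 adipocyte markers. They were also found for 3 of 10 Schwann cell and melanocyte markers, 3 of 6 pericyte markers and 5 of 17 fibroblast markers. The part of these cells in the counts of linked genes called lower was not tested. The summed level of 17 fibroblast markers was 26955.6 to 29323.7 at P1 and 36297.0 to 43416.2 at P3, while 1 of the 17 was called higher and 2 lower at P3, with a median log2 change of −0.03.

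Pappa had 5 linked regions and was among the genes with the largest rises at P3 of those with 2 or more. It encodes a secreted protease that frees insulin-like growth factors from a binding protein. Its CPM was 56.6, 51.3, 64.9 and 63.6 at P1, 237, 274, 222 and 246 at P3, 338, 551, 340 and 345 at P5, and 393, 491, 570 and 623 at P7. P1 did not overlap with any later passage, and the log2 fold change was 2.05 at P3 (SE 0.16, adjusted p = 1.25e-08) and 3.13 at P7 (SE 0.17, adjusted p = 9.67e-12). Its regions were 3 intergenic ones at 77.9, 76.5 and 20.7 kb and 2 in introns at 34.9 and 60.4 kb from the start, with median percentiles of 69.5, 46.0, 29.6, 9.67 and 42.7. None of the 5 held a TEAD core.

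Pde8b, with 4 intronic regions, had 8.36, 9.99, 8.48 and 9.65 CPM at P1, 25, 18.2, 24.1 and 25.8 at P3, 58.7, 54.6, 57.0 and 49.1 at P5, and 92.9, 96.5, 109 and 76.5 at P7. The 4 passages did not overlap, and the log2 fold change was 1.35 at P3 (SE 0.13, adjusted p = 1.68e-07) and 3.36 at P7 (SE 0.13, adjusted p = 4.06e-13). Bdnf, with 4 regions, had 12.5, 18.6, 12.6 and 20 CPM at P1, 26.5, 32.0, 31.0 and 37.2 at P3, and 56.9, 49.5, 55.4 and 61.3 at P7. It rose by 0.99 on the log2 scale at P3 (SE 0.14, adjusted p = 2.04e-05), just under the 2-fold limit, and by 1.8 at P7 (SE 0.14, adjusted p = 1.39e-09). Lurap1l, with 4 regions, lay at 28.9 to 41.5 CPM at P1 and 75.7 to 105 at P3, a log2 change of 1.34 (SE 0.14, adjusted p = 3.9e-07).

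Fhl1, an adaptor protein of the muscle and stress-fibre cytoskeleton, had 5 linked regions, 4 in introns and 1 between genes. An intronic one lies 0.173 kb from the start site of a transcript, and the intergenic one lies at 5.68 kb. Its CPM was 57.4, 69.9, 38.2 and 81.7 at P1, 91.2, 126, 104 and 194 at P3, 89.5, 102, 76.9 and 104 at P5, and 112, 172, 126 and 157 at P7. P1 and P3 did not overlap, and P1 and P5 did. The log2 change was 1.05 at P3 (SE 0.22, adjusted p = 0.00105) and 1.20 at P7 (SE 0.22, adjusted p = 0.0001). The call at P3 was lost without P1 library 3 (0.88) or P3 library 4 (0.80).

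The regions did not always lie by genes that rose. Edn1, which encodes the vasoconstrictor endothelin-1, had 5 intergenic regions and 8.77, 12.4, 6.70 and 10 CPM at P1, 4.67, 6.93, 5.87 and 6.36 at P3, and 2.60, 2.62, 2.46 and 1.93 at P7. P1 and P3 overlapped and P7 was below both, with a log2 change of −0.67 at P3 (SE 0.20, adjusted p = 0.0129) and −1.98 at P7 (SE 0.22, adjusted p = 1.99e-07). Dab2, an endocytic adaptor, fell from 119 to 131 CPM at P1 to 78.1 to 93.8 at P3 and 47.5 to 60.5 at P7. Hdac4, a class II histone deacetylase with 5 regions, rose from 35.8 to 38.2 CPM at P1 to 60.5 to 72.2 at P3, by 0.79 on the log2 scale (SE 0.09, adjusted p = 1.05e-06). Nedd4l, a ubiquitin ligase, was at 107 to 119 CPM at P1 and 103 to 121 at P3 (log2 change −0.04, adjusted p = 0.806). Dtnbp1 fell slightly at P3, by 0.35 on the log2 scale (adjusted p = 0.0150), and the adhesion scaffold Magi1 changed by 0.35 without passing the test (adjusted p = 0.0959).

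Among genes with 2 or more regions, Zdhhc2, a palmitoyltransferase, had 10.2, 8.83, 7.79 and 11.4 CPM at P1, 33.1, 39.3, 30.4 and 45.2 at P3, 45, 43.0, 42.3 and 44.7 at P5, and 76.2, 75.4, 78.8 and 81.4 at P7. Neither P3 nor any later passage overlapped with P1, and the log2 change was 1.95 at P3 (SE 0.12, adjusted p = 1.35e-09) and 3.02 at P7 (SE 0.13, adjusted p = 7.97e-13). Tll1, a protease that processes collagen precursors, had 10.9, 11.1, 9.84 and 12.1 CPM at P1, 35.8, 34.4, 39.2 and 58.6 at P3, and 29.8, 31.4, 36.7 and 50.5 at P7. Its rise was complete by P3, with a log2 change of 1.93 (SE 0.18, adjusted p = 1.07e-07) there and 1.76 at P7. 1500015O10Rik climbed from 0.204 to 0.990 CPM at P1 to 1.61 to 2.47 at P3 and 9.65 to 19.5 at P7, a log2 change of 4.58 at P7 (SE 0.33, adjusted p = 5.12e-10). Synpr, a synaptic vesicle protein, was at 0.0685 to 0.479 CPM at P1 and 1.16 to 1.61 at P3.

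The gene with the largest fall among those with 2 or more regions was Casq2, a calcium-binding protein of heart and skeletal muscle, with 10.1, 11.8, 8.54 and 11.1 CPM at P1, 1.18, 1.30, 0.774 and 1.39 at P3, and 0.148 to 0.309 at P7. It fell by 3.16 on the log2 scale at P3 (SE 0.21, adjusted p = 2.59e-09), as did 12 of the 13 skeletal muscle markers in the same libraries. Pkp1, a plakophilin of epithelial desmosomes, was at 2.85 to 11.3 CPM at P1 and 0.516 to 1.90 at P3 (log2 change −2.59, adjusted p = 0.000970), in libraries where all 13 keratinocyte markers were called lower. The parts of muscle cells and keratinocytes in these changes were not tested. Adcyap1r1, the receptor of the peptide PACAP, was at 103 to 151 CPM at P1 and 54.9 to 68.6 at P3, with a log2 change of −1.0 that lay on the 2-fold limit.

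**Figure D5:**
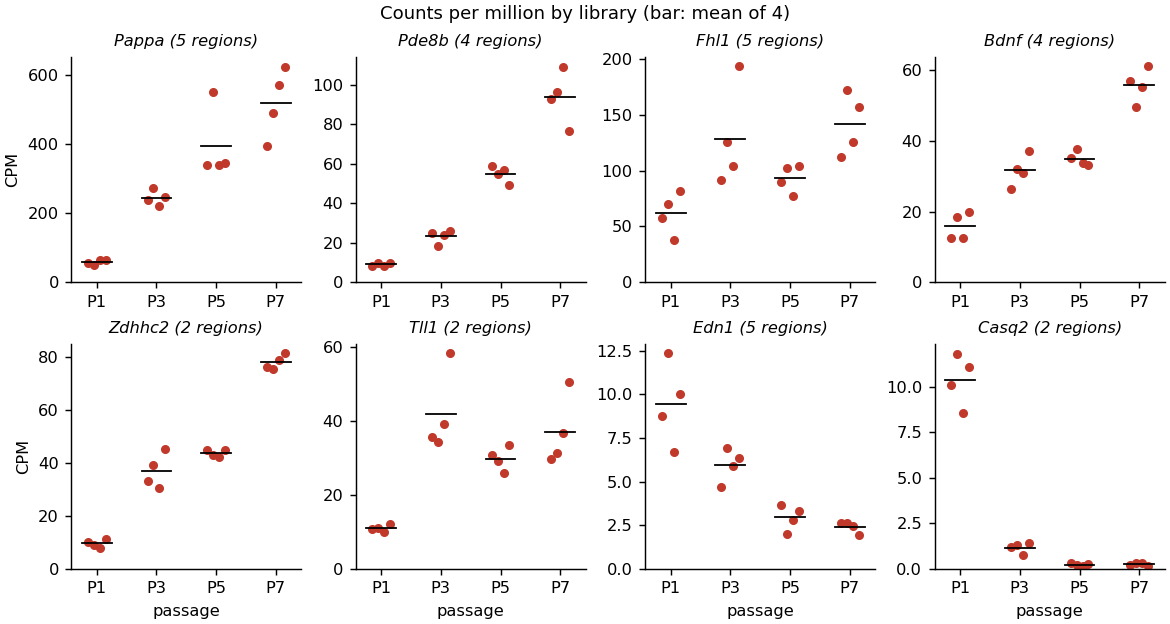
CPM (y axis, from 0) of 8 genes with linked regions in each RNA-seq library (points) at P1, P3, P5 and P7 (x axis), with the mean of the 4 libraries (bar). The means of Pappa, Pde8b, Bdnf and Zdhhc2 were lowest at P1 and highest at P7, those of Fhl1 and Tll1 were lowest at P1, and that of Edn1 was highest at P1, as was that of Casq2.

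Of the 50 genes with a region within 1 kb of a start site, 23 passed the filter. Of the 23, 3 were called higher and 4 lower at P3, where 2.40% of all genes were called higher and 6.58% lower. At P7 each direction had 4, where 8.10% of all genes were higher and 13.3% lower. Krt20, a keratin of simple epithelia, has such a region with a TEAD core. It had 0.342, 0.272, 0.273 and 0.124 CPM at P1, 0.920, 1.51, 1.29 and 2.49 at P3, 3.04, 2.83, 3.23 and 3.84 at P5, and 13, 16.7, 12.1 and 6.09 at P7. The 4 passages did not overlap, and the log2 change was 5.53 at P7 (SE 0.38, adjusted p = 2.92e-10). Pde4b, another cyclic AMP phosphodiesterase, went from 13.2 to 19.3 CPM at P1 to 33.1 to 40.3 at P3 (log2 change 1.29, SE 0.12, adjusted p = 1.68e-07). Pbk, a mitotic kinase, did not pass at P3 (log2 change −0.16, adjusted p = 0.525) and fell by 3.25 at P7 (adjusted p = 2.6e-10). Csf1r, the macrophage receptor for colony-stimulating factor 1, fell by 1.21 at P3 (adjusted p = 1.15e-06) and stood at 18.6 to 24.6 CPM at P7, within reach of its 17.1 to 24.2 at P1. Adgrf5, an adhesion G-protein-coupled receptor, fell by 2.03 on the log2 scale at P3 (adjusted p = 3.57e-06).

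Lists of genes were also set beside the regions, with 13% of all tested genes being linked. Of all tested genes, 2.40% were called higher and 6.58% lower at P3, and 8.10% and 13.3% at P7. Linked genes had more open regions of any kind around them. The part of this in the linked shares of the lists was not tested. Of 28 collagen and matrix genes 10 were linked (35.7%). Of the 28, 7 were called higher and 3 lower at P3, with a median log2 change of 0.53 against 0.00 over all genes. Of the 10 linked ones, 3 were called higher and 1 lower. Col1a2, a chain of type I collagen, rose from 5379.6 to 5914.4 CPM at P1 to 8386.7 to 10516.4 at P3 (log2 change 0.73, adjusted p = 8.26e-06), and its region holds a TEAD core. Fbn1, the main microfibril protein, rose by 0.73 (adjusted p = 1.05e-05) and the proteoglycan Lum fell by 2.15 (adjusted p = 3.17e-06). Of 29 integrin and focal adhesion genes 12 were linked (41.4%), by 17 regions, and 1 of the 29 was called higher and 1 lower at P3. Itgb3, the beta chain of a vitronectin receptor, had 3 regions and fell by 0.73 at P3 (adjusted p = 0.000112), while Nedd9 rose by 0.41 (adjusted p = 0.00278) and Actn1 by 0.54 (adjusted p = 0.00293). Of 27 axon guidance genes 8 were linked (29.6%). Of the 27, 3 were called higher and 4 lower at P3, and 5 higher and 6 lower at P7, with median log2 changes of 0.23 and −0.16. Of the 8 linked ones, 1 was called higher and 0 lower at P3, and 2 higher and 1 lower at P7. Slit3 rose by 0.52 at P3 and 1.12 at P7 (adjusted p = 0.00153 and 8.36e-08), Sema3e rose by 0.73 at P3 (adjusted p = 0.00179), and Slit2 did not pass at P3 (log2 change 0.20, adjusted p = 0.0976). Plxnd1, a semaphorin receptor, fell by 0.44 at P3 (adjusted p = 0.0438) and by 1.1 at P7 (adjusted p = 1.1e-05), and its call at P7 was lost without P7 library 1 (−0.93). Linked regions were found for 5 of 29 TGF-beta and BMP pathway genes (17.2%), for 4 of 28 senescence regulators and secretory genes (14.3%) and for 2 of 18 smooth muscle and myofibroblast genes (11.1%). At P3, 2 of the 29 were called higher and 2 lower, 5 of the 28 higher and 5 lower, and 2 of the 18 higher and 1 lower. Among the linked genes, 1 of the 5 TGF-beta and BMP genes was called higher and 0 lower. In each of the other 2 lists, 0 linked genes were called higher and 0 lower at P3. Inhbb, a subunit of activin B, did not pass at P3 (log2 change 0.21, adjusted p = 0.0622) and rose by 1.35 at P7 (adjusted p = 9.77e-11). Vegfa, the endothelial growth factor, has 2 regions that both hold a TEAD core, and it rose by 0.40 at P3 (adjusted p = 0.00573). Cald1, which binds actin and restrains myosin, has 3 regions and rose by 0.66 (adjusted p = 6.32e-05). Reads were counted without regard to strand, so counts of genes that overlap another gene, such as Col4a2, Igfbp7 and Acvr1, are uncertain. Col4a2 did not pass at P3 (adjusted p = 0.262).

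TEAD factors and their coactivators were themselves among the linked genes. Tead1 has 2 regions in its introns, 56.2 and 91.4 kb from its start, both with a TEAD core. Its CPM was 307, 347, 355 and 381 at P1, 417, 447, 481 and 545 at P3, 430, 456, 339 and 362 at P5, and 279, 406, 409 and 417 at P7. P1 and P3 did not overlap, and P1 overlapped with P5 and P7. Tead1 rose by 0.44 on the log2 scale at P3 (SE 0.13, adjusted p = 0.0103) and did not pass at P7 (0.12, adjusted p = 0.418). Wwtr1, which encodes TAZ, has 3 intronic regions and had 166, 159, 168 and 185 CPM at P1, 218, 235, 222 and 251 at P3, and 253, 261, 283 and 320 at P7. It was above P1 in every later library, with a log2 change of 0.45 at P3 (SE 0.08, adjusted p = 0.000359) and 0.72 at P7 (SE 0.08, adjusted p = 4.04e-07). None of Tead2, Tead3, Tead4, Yap1, Vgll3 and Vgll4 was linked. Yap1 rose by 0.24 at P3 (adjusted p = 0.0145), Tead2 rose by 0.45 (adjusted p = 0.00147), Tead4 fell by 0.66 (adjusted p = 0.0472) and Tead3 did not pass (0.00, adjusted p = 0.997). Of 25 target genes of the Hippo pathway and TEAD 6 were linked (24.0%), and 1 of the 25 was called higher and 1 lower at P3. Of the 6 linked ones, 0 were called higher and 0 lower at P3. Amotl2, an angiomotin that holds back YAP, lay at 155 to 236 CPM at P1 and 353 to 363 at P3, a log2 change of 0.87 (SE 0.11, adjusted p = 3.85e-06). Rbms3 rose by 0.64 (adjusted p = 0.000192) and F3, the tissue factor of blood clotting, by 0.71 (adjusted p = 0.0200). Of 9 AP-1 subunits 2 were linked. Fosl2 did not pass at P3 (−0.09, adjusted p = 0.405) and Batf, which was at 0.866 to 1.5 CPM at P1 and 0.263 to 0.967 at P3, fell by 1.24 (adjusted p = 0.0449). Fos, Fosb, Fosl1, Jun, Junb, Jund and Atf3, which were not linked, did not pass at P3, with log2 changes between −0.41 and 0.49.

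In the Tead1 knockdown, the targeted gene had 572, 508 and 545 CPM with nt, 268, 284 and 285 with sh3 and 315, 313 and 320 with sh4. The hairpins and nt did not overlap, and Tead1 fell by 0.96 with sh3 (SE 0.04, adjusted p = 4.63e-17) and by 0.78 with sh4 (SE 0.04, adjusted p = 8.58e-15). Of 13012 genes tested 1715 were linked to the regions. With sh3, 37 linked genes (2.16%) were called higher, against 1.99% of all genes, and 18 (1.05%) lower, against 0.722%. With sh4, 18 (1.05%) were higher against 1.01%, and 16 (0.933%) lower against 0.523%. The share higher with sh4 moved between 0.544% and 1.71% under other filters, links and region sets. Both hairpins were compared with the same nt libraries. The sequences that the paper lists for sh3 and sh4 target almost the same stretch of Tead1. Their agreement is therefore not that of independent hairpins. Linked genes with a TEAD core in a region were called lower in 1.39% of 574 cases with sh3, against 0.876% of the 1141 others, and in 1.05% against 0.876% with sh4. These shares rest on 8 and 6 genes with a TEAD core, and their difference was not tested.

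Zdhhc2 was at 64.2, 77.0 and 71.9 CPM with nt, 26.0, 26.1 and 28.9 with sh3 and 37.4, 32.1 and 31.3 with sh4. It fell by 1.39 with sh3 (SE 0.07, adjusted p = 2.26e-15) and by 1.08 with sh4 (SE 0.07, adjusted p = 5.26e-13). Gjb2, which encodes the gap junction protein connexin 26, and Fbn2, a second fibrillin, were named after their values were seen. Gjb2 had 37.9, 34.5 and 32.2 CPM with nt, 11.5, 8.71 and 10 with sh3 and 12.6, 12.1 and 15.9 with sh4, and its region holds a TEAD core. Its level was 0.0685 to 0.748 CPM at P1, 6.83 to 15.3 at P3 and 1.26 to 3.70 at P7. Fbn2 fell by 1.32 and 1.06 with the hairpins (adjusted p = 2.47e-18 and 3.05e-16) and rose by 1.07 at P3 (adjusted p = 5e-05), a call that was lost without P1 library 3 (0.96). At P7 Fbn2 was below P1, with a log2 change of −0.73 (adjusted p = 0.00122). Car6, a secreted carbonic anhydrase, was called higher at P3 (log2 change 1.92) and with both hairpins (1.36 and 1.06). The call of Car6 with sh4 was lost without sh4 library 1 (0.99) or nt library 2 (0.91). The regions linked to Zdhhc2, Fbn2 and Car6 hold no TEAD core. Of the 74 linked genes called higher at P3, 3 were called lower with both hairpins and 1 higher with both. These are Zdhhc2, Gjb2 and Fbn2, and Car6. The share over all genes was not worked out for this overlap, so nothing about the regions is read from it.

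Fhl1 fell with both Tead1 hairpins, by 0.65 and 0.58 (adjusted p = 1.79e-14 and 5.61e-13), from 398 to 420 CPM with nt to 258 to 278 with the hairpins. Krt20 was at 7.28, 7.14 and 7.24 CPM with nt, 3.08, 2.92 and 4.57 with sh3 and 4.64, 3.58 and 2.96 with sh4, and fell by 1.03 and 0.95 (adjusted p = 3.27e-05 and 0.000115). Pappa fell by 0.16 with each hairpin (adjusted p = 0.00268 and 0.00423). Pde8b rose by 0.22 and 0.15, Tll1 did not pass with either hairpin (adjusted p = 0.758 and 0.282), and 1500015O10Rik rose by 1.32 and 0.93 (adjusted p = 1.7e-09 and 3.02e-06).

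In the Atf3 knockdown, library 3 of sh5 stood apart from the others of its group. Its chi-square per degree of freedom was 59.4 and 63.7 against libraries 1 and 2, which had 3.29 between them, and it had the highest share of counts on rows that name no gene (16.8%). Jund was at 35.4 CPM in it and at 124 and 147 in the other two. The targeted gene was at a low level, with 3.31, 2.85 and 2.77 CPM with nt, 1.46, 2.10 and 0.451 with sh5 and 1.51, 1.56 and 2.09 with sh6. The hairpins and nt did not overlap. Atf3 fell by 1.14 with sh5 (SE 0.39, adjusted p = 0.0447), and the change of −0.79 with sh6 did not pass (SE 0.39, adjusted p = 0.114). The call with sh5 was lost with the replicate number as a block (−1.19, adjusted p = 0.0552). It was also lost without sh5 library 1 (adjusted p = 0.0764) or nt library 1, 2 or 3 (adjusted p = 0.115, 0.0991 and 0.0910). Without sh5 library 3 the change was −0.71 (adjusted p = 0.0393), under the 2-fold limit. Of 13345 genes tested 1750 were linked. With sh5, 28 (1.60%) were called higher against 1.38% of all genes, and 58 (3.31%) lower against 3.82%. With sh6, 94 (5.37%) were higher against 4.83%, and 215 (12.3%) lower against 10.9%. Without sh5 library 3, the shares with sh5 were 1.13% higher against 1.08% of all genes, and 2.66% lower against 2.54%, so that the order of the lower shares turned. Without sh5 library 2 they were 2.16% against 1.92% and 5.0% against 5.75%.

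Of 24 genes with 3 linked regions, 1 was called higher and 3 lower with sh6. Of 12 genes with 4 or more, 2 were called higher and 2 lower with sh6. With sh5, 0 of these genes were called. Over all genes, 4.83% were called higher and 10.9% lower with sh6, against 1.38% and 3.82% with sh5. Fhl1 had 193, 181 and 181 CPM with nt, 167, 157 and 187 with sh5 and 525, 567 and 579 with sh6, with log2 changes of −0.12 (SE 0.08, adjusted p = 0.259) and 1.59 (SE 0.08, adjusted p = 2.26e-07). Wwtr1 had 273, 255 and 263 CPM with nt, 289, 297 and 302 with sh5 and 97.9, 95.6 and 91.6 with sh6, and fell by 1.47 with sh6 (SE 0.06, adjusted p = 1.13e-07). Foxp1, a forkhead factor, fell by 1.35 and Dab2 by 1.30 with sh6 (adjusted p = 3.26e-07 and 3.07e-06), and neither passed with sh5 (adjusted p = 0.468 and 0.853). Without sh5 library 3, the log2 changes with sh5 were −0.16 for Fhl1 (adjusted p = 0.0465), 0.18 for Wwtr1 (adjusted p = 0.0173), 0.10 for Foxp1 (adjusted p = 0.248), −0.01 for Dab2 (adjusted p = 0.947) and 1.1 for Krt20 (adjusted p = 0.000794). Edn1 rose by 3.00 with sh6 (SE 0.27, adjusted p = 1.04e-05) and was at 0.785 to 1.95 CPM with nt. Krt20 rose with both, by 1.05 and 2.69 (adjusted p = 0.00467 and 3.07e-06), from 2.71, 4.22 and 3.37 CPM with nt to 8.67, 5.68 and 6.88 with sh5 and 25.4, 21.3 and 19.5 with sh6. For Pappa, Bdnf and Hdac4 the log2 changes with the 2 hairpins lay between −0.08 and 0.28. The difference between the Atf3 hairpins was not tested for these genes.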

How the data were processed

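Peak lists and gene counts of cultured mouse fibroblasts were analysed. For RNA-seq, the authors used Trimmomatic 0.39 for trimming, HISAT2 2.2.1 for alignment (mm10) and HTSeq 0.12.4 for unstranded counting. The deposited RNA values are raw counts for 24984 genes. Library totals were 13430229 to 15725823 in the passages, 17460990 to 19440415 in the Tead1 and 17245955 to 23380496 in the Atf3 experiment, where rows that name no gene held 9.81 to 10.7% and 10.5 to 16.8% of counts and were left out. For ATAC-seq, the authors aligned reads with Bowtie2 and called peaks with MACS2 in each sample. Each deposited peak has a fold enrichment over local background and a −log10 p and −log10 q of that sample. The peak lists give peaks without read counts, and the depth per sample is unknown.

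Percentiles, windows and distances were computed with Python 3.11.15, pandas 2.3.3 and NumPy 2.4.6, with RefSeq GRCm38 transcripts (24796 genes with a start site). Counts were fitted with edgeR 4.0.16 (R 4.3.3), 1 fit for each experiment, with filterByExpr, TMM, the quasi-likelihood test and Benjamini-Hochberg adjustment, after the script was tested on simulated data. CPM values are TMM-scaled. Alternatives were DESeq2 1.42.0, its size factors, other filters, peak thresholds, windows and link distances, a replicate block and leaving out each sample. No RNA-seq library was a duplicate of another in its group, since the lowest chi-square per degree of freedom between replicates was 2.80. Libraries of different groups and the ATAC-seq samples were not compared in this way. Genes were named if they had the most linked regions (15), the largest called changes at P3 among those with 2 or more regions (6 higher and 4 lower), a region within 1 kb of a start site and a call, or belonged to the TEAD or AP-1 families or to the lists (up to 4 each). Of the genes so named, 1 is not reported here. The regions and the gene lists were chosen with earlier results of these data known. RRBS and E2f4 samples were not used here.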

Additional observations from a re-analysis of the deposited data

Results flagged for a closer look

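For 36 genes (those with the most linked regions, the largest changes or a region within 1 kb of a start site, Tead1, Wwtr1, and those called at P3 and with both Tead1 hairpins), each group of 4 libraries at a passage was searched for a library far from the other 3. A library stood apart in 12 of 145 groups, 144 of these genes and 1 of the peak numbers at P1, and chance alone sets one apart in about 1 in 20 groups. Pappa was at 551 CPM in P5 library 2 and at 338 to 345 in the others. Hdac4 was at 72.2 CPM in P3 library 1 against 60.5 to 61.5, and Eif4g3 at 178 CPM in P3 library 2 against 193 to 194. Synpr reached 3.79 CPM in P7 library 4 against 1.76 to 2.08. In P1 library 3, Pkp1 was at 11.3 CPM against 2.85 to 3.42, Casz1 at 1.23 against 1.97 to 2.05, and Pde4b at 19.3 against 13.2 to 13.7. Pkp1 was also apart in P3 library 4, at 1.90 CPM against 0.516 to 0.549. Scn4a, a muscle sodium channel, was at 0.723 CPM in P3 library 1 (others 0 to 0.0731), at 0.138 in P5 library 2 (others 0) and at 0 in P7 library 4 (others 0.0763 to 0.0772). Tead1 was at 279 CPM in P7 library 1 and at 406 to 417 in the others.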

How the results depend on the processing

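The number of regions was 2433 with peaks of −log10 q of at least 5, 3302 with equally many top-ranked peaks per sample, 3949 when a peak had to cover most of the region and 1028 when all 3 samples were required at each later passage. It ranged from 2003 to 4672 when 1 sample was left out (2072, 2378 and 2003 without each P3 sample, where both remaining samples were then required). The TEAD share was 21.4% with 50 bases on each side, 13.4% with GGAATGT, 35.4% where all 9 samples had a peak and 30.6% at P3 summits. The share near start sites was 4.11% within 2000 bases. The strength of the regions by passage turned with the measure. Those stronger at both steps after P3 were 1852 by percentile, 437 by rank from the top and 2037 by fold enrichment, and those strongest at P3 were 269, 1948 and 158, where rank and fold enrichment were added after seeing the data. Of 194 alternative values of the 14 shares of linked genes called, 187 were within 1.5 times of the reported share, including 95 of 96 with 1 library left out. With at least 10 counts in every library, 2.38% of linked genes were lower at P3, and 1.34% and 0.550% were higher with Tead1 sh3 and sh4. The sh4 share was 1.71% with links within 10 kb and 0.544% with the 1028 regions, with which the share higher with Atf3 sh5 was 2.68%. The share lower with Atf3 sh5 ranged from 2.66 to 5.0% with 1 library left out, the highest without sh5 library 2. The causes were not tested. The share higher at P3 was above that of all genes in 15 of 15 settings, the shares lower at P5 and P7 were under it in 14 of 15 each, and the share higher with Tead1 sh4 was over it in 8 of 13.

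The replicate numbers were not taken as pairs, since not every pair of same-numbered libraries correlated above 0.1 (those numbered 4 in the passages did, at 0.105 to 0.276). The correlation of same-numbered libraries was −0.262 to 0.276 in the passages, −0.0446 to 0.112 in the Tead1 and −0.158 to 0.137 in the Atf3 experiment. With the replicate block, 4.23% of linked genes were higher and 4.69% lower at P3, and 14 of 14 shares stayed within 1.5 times. Over all alternatives of the named genes, 53 calls were lost, 36 were gained and 0 turned in direction. Adcyap1r1, Colec10, Scn4a and Batf at P3, whose changes lay near the 2-fold limit or whose counts were low, were among those that lost a call. The unknown depth of the ATAC-seq samples limits the weakest peaks, and a region without a P1 peak may have been under the limit of detection there.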
